A study of Mus musculus with 11 samples.

Results

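Hypoxia-inducible genes are genes whose transcription is raised when oxygen is scarce. The 10 described here, Vegfa, Car9, Bnip3, Ndrg1, Ankrd37, Egln3, Adm, Pdk1, Slc2a1 and Ndufa4l2, were chosen by name as well-known members of this class, and all 10 are among the 25239 genes of the count table. They were read in 3 poly(A)-selected RNA libraries of J1 mouse embryonic stem cells at day 0, 1 library per genotype: TKO_602, TKO_FL and TKO. All 3 names contain TKO, which other labels of the series write as DNMT TKO, after the DNA methyltransferase genes that the series title calls mutant. The sources used here do not explain 602 or FL, name no promoter for an introduced gene and do not state whether a line is 1 clone. The cells grew with serum and LIF on mouse embryonic fibroblast feeders, and no low-oxygen treatment is named for any library, so the class name rests on prior knowledge of the genes and not on these cells. The other 8 of the 11 samples of the series are immunoprecipitations of modified DNA and were not analysed here.

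In normal oxygen, prolyl hydroxylases of the EGLN family mark the transcription factor subunits HIF1A and EPAS1 (HIF2A), and the VHL ubiquitin ligase then removes them. When oxygen falls, the subunits persist, pair with ARNT and bind short hypoxia response elements whose core, ACGTG or GCGTG, holds a CpG. Methylation of that CpG is known to block binding of the factor. Mouse embryonic stem cells are known to rely strongly on glycolysis, and many targets of the pathway are genes of glucose use and mitochondrial restraint.

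The libraries held 43158441 reads in genes for TKO_602, 19573689 for TKO_FL and 21133660 for TKO. Dnmt1, the maintenance methyltransferase, stood at 2444, 3364 and 159 CPM (counts scaled to library size with TMM factors) in TKO_602, TKO_FL and TKO. It was thus far lower in TKO than in TKO_602 and TKO_FL. The 12 embryonic stem cell markers examined were all above 100 CPM in every library, with summed levels of 8086, 7931 and 6481 CPM in TKO_602, TKO_FL and TKO. Markers of other cells also differed between libraries. The summed level of 16 primitive endoderm markers was 1806, 1153 and 4087 CPM, while that of 20 fibroblast markers, which feeder cells would carry, was 764, 498 and 865 CPM in TKO_602, TKO_FL and TKO. Of the primitive endoderm markers 14, 15 and 16, and of the fibroblast markers 19 in each library, reached 1 CPM, and none was at 0 reads. The primitive endoderm sum is weighted to its abundant members, the highest in each library being the laminin gene Lamc1 with 509, 412 and 953 CPM. Gata6, a defining primitive endoderm factor, had 10.0, 1.56 and 21.7 CPM. Sox17 had 3.66, 1.87 and 6.71 CPM and Cubn 23.8, 13.4 and 165 CPM. The fibroblast collagen gene Col1a1 had 172, 79.0 and 163 CPM, Col1a2 had 110, 74.0 and 122 CPM and Thy1 had 17.1, 30.7 and 43.3 CPM. Of 19 fibroblast markers measured in TKO_602 against TKO, 14 were lower in TKO_602 and 5 were higher. At least 2-fold, 4 were lower and 1 was higher, where 8.06% of all genes were lower and 11.0% higher. In TKO_FL against TKO, 18 of 19 fibroblast markers were lower, 6 of them at least 2-fold, and 1 was higher. Of 16 primitive endoderm markers, all 16 were lower in TKO_FL than in TKO, 15 of them at least 2-fold. Of all genes, 2.5% were at least 2-fold lower in TKO_FL than in TKO. In TKO_602 against TKO, 15 of 16 primitive endoderm markers were lower, 11 of them at least 2-fold, and 1 was higher by less than 2-fold. The part of primitive endoderm or feeder cells in the values below was not tested. In bulk RNA, fewer cells of a type and less RNA per cell cannot be told apart. The file headers give the aligned reads of TKO_602 a folder path apart from that of TKO_FL and TKO. They do not state whether this marks a batch, and in comparisons of TKO_602 a batch and the genotype cannot be told apart. With 1 library per genotype, no difference below has a replicate check or a p-value, and the bracketed intervals are exact 95% binomial intervals of the log2 ratio of counts, which cover counting error only.

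Promoter windows of 250 bases before to 50 after the gene start were taken from RefSeq (GRCm38.p6) for 8 of the 10 genes. Ndrg1 and Ndufa4l2 have no sequence printed or counted. The windows were searched on both strands for ACGTG and for GCGTG. The core ACGTG occurs on both strands of the palindrome CACGTG and then counts once on each. Of the 8 windows, 7 held at least 1 core. Bnip3 held 5, Ankrd37 4, and Adm, Pdk1 and Slc2a1 2 each, Car9 and Egln3 held 1 each, and Vegfa held none in this window. Among 10539 windows at the annotated start of genes expressed in these libraries, 63.1% held at least 1 core, against 43.8% of all 32851 windows in RefSeq's set. Of the same 10539 windows, 34.4% held at least 2 cores and 7.59% held at least 4. The 4 windows below are shown because they span the different behaviours of the RNA: Car9 with the widest spread between libraries, Bnip3 with the most cores, Ankrd37 with 4 cores and its lowest level in TKO_FL and Slc2a1 as the most abundant, with a small spread. Capitals mark the cores on either strand. The windows are chr4:43506776-43507075 (plus strand), chr7:138909457-138909756 (minus strand), chr8:45999801-46000100 (minus strand) and chr4:119108495-119108794 (plus strand), each written 5′ to 3′ in the direction of the gene.
Car9: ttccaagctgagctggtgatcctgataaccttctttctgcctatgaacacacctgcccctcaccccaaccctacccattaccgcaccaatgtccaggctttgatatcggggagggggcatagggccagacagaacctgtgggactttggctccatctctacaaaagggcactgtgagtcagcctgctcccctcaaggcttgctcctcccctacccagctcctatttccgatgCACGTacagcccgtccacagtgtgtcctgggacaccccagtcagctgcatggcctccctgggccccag
Bnip3: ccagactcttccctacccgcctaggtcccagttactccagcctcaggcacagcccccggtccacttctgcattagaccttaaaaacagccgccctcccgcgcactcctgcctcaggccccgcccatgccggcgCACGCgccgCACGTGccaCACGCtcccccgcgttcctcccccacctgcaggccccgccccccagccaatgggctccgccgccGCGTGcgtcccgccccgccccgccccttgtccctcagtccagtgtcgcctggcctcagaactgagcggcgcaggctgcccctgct
Ankrd37: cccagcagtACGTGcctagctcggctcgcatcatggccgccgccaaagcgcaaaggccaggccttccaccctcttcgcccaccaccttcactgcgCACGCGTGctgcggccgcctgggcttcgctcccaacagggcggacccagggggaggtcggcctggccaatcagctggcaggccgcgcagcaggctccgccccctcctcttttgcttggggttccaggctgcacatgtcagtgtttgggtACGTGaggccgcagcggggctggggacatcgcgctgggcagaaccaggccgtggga
Slc2a1: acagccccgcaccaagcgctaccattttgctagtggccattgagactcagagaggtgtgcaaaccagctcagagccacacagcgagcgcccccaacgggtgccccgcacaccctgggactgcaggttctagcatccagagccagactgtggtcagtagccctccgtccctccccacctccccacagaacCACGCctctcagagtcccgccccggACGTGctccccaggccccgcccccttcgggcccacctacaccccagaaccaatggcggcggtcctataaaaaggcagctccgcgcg
The Car9 window held 1 ACGTG, on the opposite strand, with its first base 18 bases before the start. The Bnip3 window held 5 cores, of which a CACGTG gives 2. The Ankrd37 window held 4, of which a CACGCGTG gives 2 that overlap on opposite strands. The windows of all other genes were counted in the same way. Car9 had few CpG dinucleotides, 5 in 300 bases, against 27 in Bnip3, 24 in Ankrd37 and 18 in Slc2a1, where the median over the windows of expressed genes was 21. A core in a window is a match of letters and not evidence of binding, and methylation at these CpGs was not analysed here.

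The 10 genes did not follow a single order over the libraries. Vegfa, Car9, Bnip3 and Ndufa4l2 were highest in TKO_602, intermediate in TKO_FL and lowest in TKO, with each step beyond counting error. Egln3 and Adm were highest in TKO_602, with TKO_FL and TKO not separated by counting error. Ndrg1 and Ankrd37 were lowest in TKO_FL, with TKO_602 and TKO not separated. Pdk1 and Slc2a1 were highest in TKO_FL and lowest in TKO_602, by small steps that each exceeded counting error with TMM factors. For Slc2a1 the step between TKO_602 and TKO, a log2 fold of -0.10, was -0.01 without TMM factors and -0.03 on TPM, both within counting error. The same step of Pdk1, a log2 fold of -0.16, shrank to -0.08 without TMM factors and to -0.09 on TPM. The highest library stood 11.2 times above the lowest for Car9, 8.05 times for Ndufa4l2, 3.80 times for Adm and 2.95 times for Vegfa, but only 1.35 times for Ndrg1, 1.30 times for Slc2a1 and 1.29 times for Pdk1, all as ratios of CPM.

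**Figure D1:**
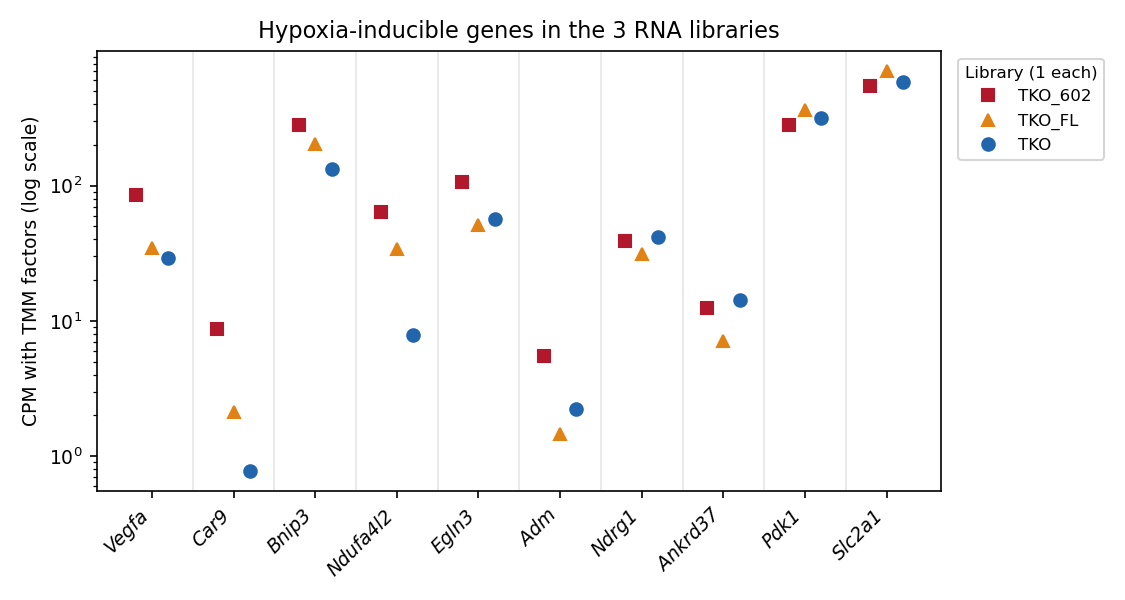
CPM with TMM factors (log scale) of each of the 10 genes in the TKO_602, TKO_FL and TKO libraries, 1 point per library and no error bars. Vegfa, Car9, Bnip3 and Ndufa4l2 descend from TKO_602 to TKO, whereas Pdk1 and Slc2a1 lie close together in all 3 libraries.

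The secreted ligands were Vegfa, which drives vessel growth, and Adm, the precursor of the vasodilator peptide adrenomedullin. Vegfa (mm10 chromosome 17, 46016993 to 46032377, minus strand) had 85.8 CPM in TKO_602, 34.8 in TKO_FL and 29.1 in TKO. TKO_602 stood apart and the other two were close: the log2 fold, always taken on CPM plus a pseudocount of 1, was 1.53 for TKO_602 against TKO (interval 1.39 to 1.74), 1.28 for TKO_602 against TKO_FL (1.13 to 1.47) and 0.25 for TKO_FL against TKO (0.03 to 0.49). Adm (chromosome 7, 110627657 to 110629820, plus strand) was scarce, with 5.53, 1.46 and 2.22 CPM from 248, 28 and 46 reads in TKO_602, TKO_FL and TKO. Its log2 fold was 1.02 for TKO_602 against TKO (interval 0.67 to 2.03) and 1.41 for TKO_602 against TKO_FL (1.13 to 2.84). Between TKO_FL and TKO a difference in Adm was not detectable at this depth, with a log2 fold of -0.39 and an interval of -1.68 to 0.41.

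Car9 and Slc2a1 encode proteins of the cell surface. Car9 (chromosome 4, 43507026 to 43513725, plus strand), a carbonic anhydrase that keeps the cell's pH in balance, had 8.66 CPM in TKO_602, 2.13 in TKO_FL and 0.772 in TKO, from 388, 41 and 16 reads. TKO_602 was thus well above both others, with log2 folds of 2.45 (interval 2.48 to 4.72) over TKO and 1.62 (1.36 to 2.76) over TKO_FL; the interval is of the ratio without the pseudocount and so lies above the first fold. TKO_FL against TKO gave 0.82 (interval 0.23 to 2.85), and the pseudocount, which shrinks the fold of so low a gene, kept it under 2-fold although the ratio of CPM was 2.76. Of the exonic bases of Car9, 7.40% are shared with Arhgef39, whose CPM was 41.8, 17.5 and 20.0. Reads on bases of both genes are left out under the authors' counting, and reads of an antisense neighbour cannot be told apart without strand. Slc2a1 (chromosome 4, 119108745 to 119137329, plus strand), the glucose transporter GLUT1, was the most abundant of the 10 with 542, 707 and 580 CPM in TKO_602, TKO_FL and TKO. Its log2 folds were small, -0.10 for TKO_602 against TKO (interval -0.14 to -0.05), -0.38 for TKO_602 against TKO_FL (-0.43 to -0.34) and 0.29 for TKO_FL against TKO (0.24 to 0.34).

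Ndufa4l2, Bnip3 and Pdk1 act at mitochondria. Ndufa4l2 (chromosome 10, 127514939 to 127517156, plus strand), a relative of a respiratory chain subunit that lowers mitochondrial oxygen use, had 63.7 CPM in TKO_602, 34.1 in TKO_FL and 7.92 in TKO. Both libraries with high Dnmt1 were far above TKO: the log2 fold was 2.86 for TKO_602 (interval 2.69 to 3.35), rank 30 from the top of 13748 genes, and 1.98 for TKO_FL (1.75 to 2.47), rank 10 of 13563. TKO_602 against TKO_FL gave 0.88 (0.73 to 1.08). The gene shares 3.53% of its exonic bases with Shmt2, which had 147, 223 and 217 CPM in TKO_602, TKO_FL and TKO. The part of Shmt2 reads in the Ndufa4l2 values was not tested. Bnip3 (chromosome 7, 138890836 to 138909506, minus strand), a receptor for the removal of mitochondria by autophagy, had 283, 202 and 134 CPM. Its steps were even, with log2 folds of 1.08 for TKO_602 against TKO (interval 1.00 to 1.17), 0.60 for TKO_FL against TKO (0.50 to 0.70) and 0.48 for TKO_602 against TKO_FL (0.41 to 0.56). Pdk1 (chromosome 2, 71873224 to 71903858, plus strand), a kinase that keeps pyruvate out of the citric acid cycle by inhibiting pyruvate dehydrogenase, had 282, 364 and 316 CPM. Unlike Bnip3 it was lowest in TKO_602, with log2 folds of -0.16 against TKO (interval -0.22 to -0.10) and -0.36 against TKO_FL (-0.42 to -0.31), and TKO_FL against TKO gave 0.20 (0.14 to 0.27).

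Egln3, Ndrg1 and Ankrd37 are the remaining genes. Egln3 (chromosome 12, 54178981 to 54203874, minus strand) encodes a prolyl hydroxylase that acts on HIF subunits and so gives the pathway a negative feedback. It had 107 CPM in TKO_602, 50.9 in TKO_FL and 56.9 in TKO. TKO_602 was above both others, with log2 folds of 1.06 against TKO_FL (interval 0.93 to 1.22) and 0.90 against TKO (0.78 to 1.05), while TKO_FL against TKO gave -0.16 (-0.34 to 0.02). Ndrg1 (chromosome 15, 66929318 to 66969641, minus strand), a stress-responsive gene linked to differentiation, had 39.2, 31.0 and 42.0 CPM in TKO_602, TKO_FL and TKO, and its log2 folds were -0.10 for TKO_602 against TKO (interval -0.27 to 0.07), 0.33 for TKO_602 against TKO_FL (0.14 to 0.53) and -0.42 for TKO_FL against TKO (-0.65 to -0.22). Ankrd37 (chromosome 8, 45996908 to 45999850, minus strand), which encodes a small ankyrin repeat protein, had 12.6, 7.12 and 14.2 CPM from 563, 137 and 295 reads. TKO_FL stood low: TKO_FL against TKO gave a log2 fold of -0.91 (interval -1.43 to -0.58), TKO_602 against TKO_FL gave 0.74 (0.43 to 1.22) and TKO_602 against TKO gave -0.17 (-0.47 to 0.12). Ankrd37 shares 5.42% of its exonic bases with Ufsp2, which had 25.5, 23.6 and 19.5 CPM in TKO_602, TKO_FL and TKO.

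**Figure D2:**
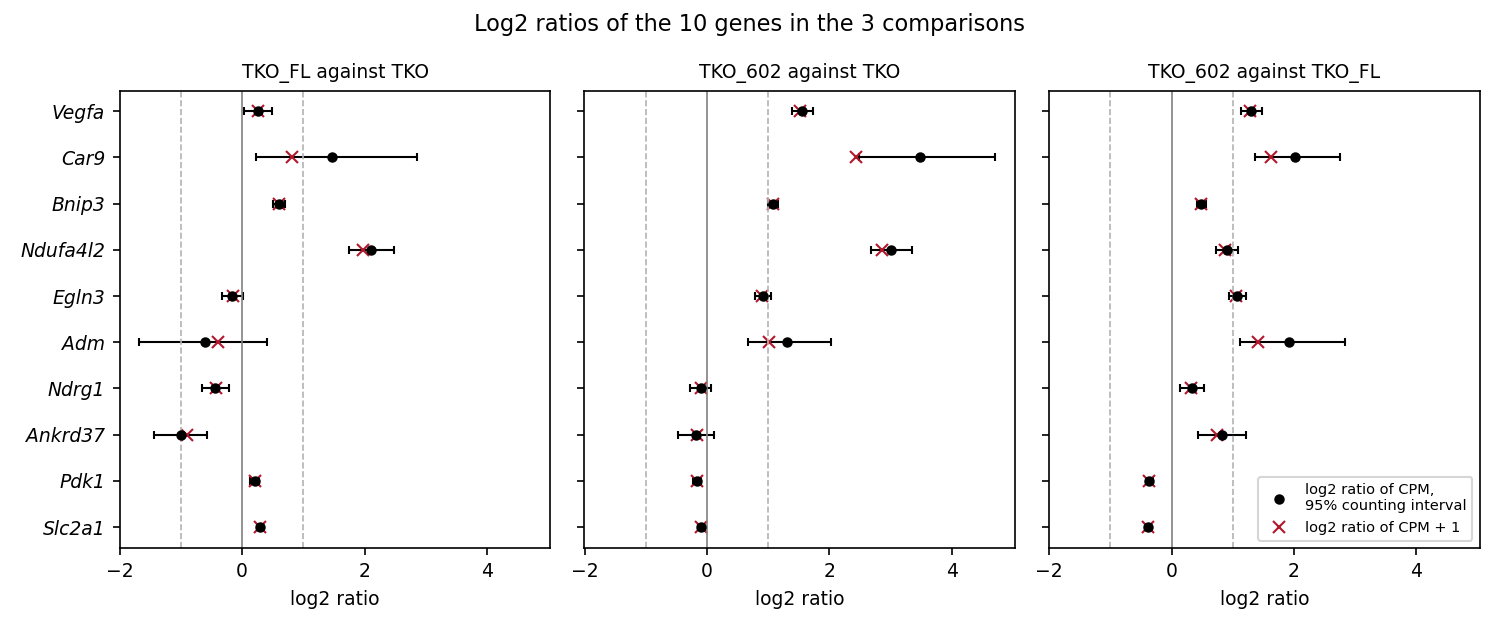
Log2 ratios of the 10 genes for TKO_FL against TKO, TKO_602 against TKO and TKO_602 against TKO_FL. Black points are ratios of CPM with their exact 95% counting intervals, red crosses are ratios of CPM plus 1, and dashed lines mark 2-fold. In both comparisons of TKO_602 the upper 6 genes lie to the right of 0, and Pdk1 and Slc2a1 lie left of it. The intervals of Car9 and Adm are the widest.

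Per length, which allows levels to be compared between genes, Slc2a1 led in every library with 485, 603 and 494 TPM (counts scaled to exonic length and library, computed from the count table) in TKO_602, TKO_FL and TKO, and Bnip3 came next with 371, 253 and 166 TPM. Expressed genes had a median of 18.1, 16.0 and 15.5 TPM. Ndufa4l2 moved most in this order: it took place 3 of 10 in TKO_602 at 152 TPM, place 4 in TKO_FL at 77.6 TPM and place 7 in TKO at 18.0 TPM, where it was not separated from Vegfa at 15.2 TPM by counting error. Other neighbours not separated were Ankrd37 and Ndrg1 in TKO_602 (32.0 and 31.2 TPM) and in TKO (34.5 and 31.8 TPM), Vegfa and Ankrd37 in TKO_FL (18.3 and 17.3 TPM), and Car9 and Adm in TKO_602 (10.2 and 9.14 TPM) and in TKO_FL (2.39 and 2.29 TPM). In TKO the last place was held by Car9 at 0.863 TPM, below Adm at 3.49 TPM. The sum over the 10 genes was 1349, 1183 and 936 TPM, of which Slc2a1, Bnip3 and Pdk1 made up 72.2%, 84.5% and 83.9%.

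**Figure D3:**
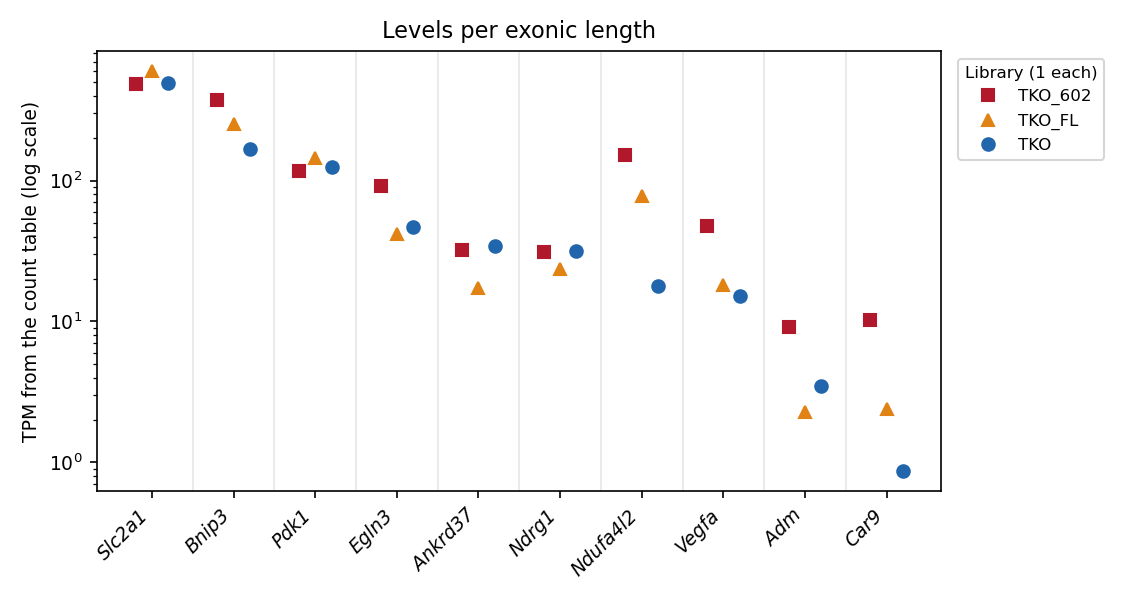
TPM computed from the count table (log scale) for the 10 genes, ordered by level in TKO, with 1 point per library and no error bars. Slc2a1, Bnip3 and Pdk1 are the highest in TKO. Ndufa4l2 lies at 152, 77.6 and 18.0 TPM in TKO_602, TKO_FL and TKO.

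In TKO_FL against TKO, 1 of the 10 genes, Ndufa4l2, was at least 2-fold higher and none was at least 2-fold lower. Of all 13563 genes that reached 1 CPM in either library, 3.24% were at least 2-fold higher and 2.5% lower, 5.74% in all. The median log2 fold of the 10 was 0.23, with 6 above 0, beside a median of 0.00 over all genes. In TKO_602 against TKO, 5 of the 10 (Vegfa, Car9, Bnip3, Adm and Ndufa4l2) were at least 2-fold higher and none was lower, where 11.0% of 13748 genes were higher and 8.06% lower, 19.0% in all. The median of the 10 was 0.96, beside 0.03 over all genes, and the 4 genes below 0 lay between -0.17 and -0.10. Adm was the closest to the threshold at 1.02, and it dropped below with a pseudocount of 5. In TKO_602 against TKO_FL, 4 of the 10 (Vegfa, Car9, Egln3 and Adm) were at least 2-fold higher and none lower, where 6.75% of 13683 genes were higher and 4.87% lower, 11.6% in all. The median of the 10 was 0.81, beside 0.03, and 8 of the 10 lay above 0. The comparisons share libraries, so their counts are not independent of each other.

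The genes that sense oxygen and carry the signal were 2-fold apart no more often than genes in general in the 3 comparisons. Of 17 genes of the HIF pathway, none was 2-fold apart in TKO_FL against TKO, where 5.74% of all genes were, and the median log2 fold was -0.14. In TKO_602 against TKO 1 was higher and 2 were lower, where 19.0% of all genes were 2-fold apart, with a median of -0.28. Hif3a, a HIF subunit some of whose forms restrain the others, had 23.3, 10.2 and 8.35 CPM in TKO_602, TKO_FL and TKO, a log2 fold of 1.38 for TKO_602 against TKO and of 1.11 against TKO_FL, and it was the only one of the 17 called in that last comparison, where 11.6% of all genes were. Epas1, which encodes the HIF2A subunit, went the other way with 28.5, 35.4 and 66.9 CPM (log2 -1.20 for TKO_602 against TKO, -0.90 for TKO_FL against TKO). Cited2, a target that competes with HIF for its coactivators, had 42.1, 53.9 and 85.9 CPM (log2 -1.01 for TKO_602 against TKO, a call lost without TMM factors and on TPM). Hif1a itself had 162, 181 and 205 CPM and its partner Arnt 156, 113 and 102 CPM. The RNA of Hif1a does not report HIF1A protein, whose amount is set mainly by degradation. Egln1, the main oxygen sensor of the family, had 64.9, 37.1 and 36.7 CPM, and Vhl had 32.4, 22.0 and 25.0 CPM.

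**Figure D4:**
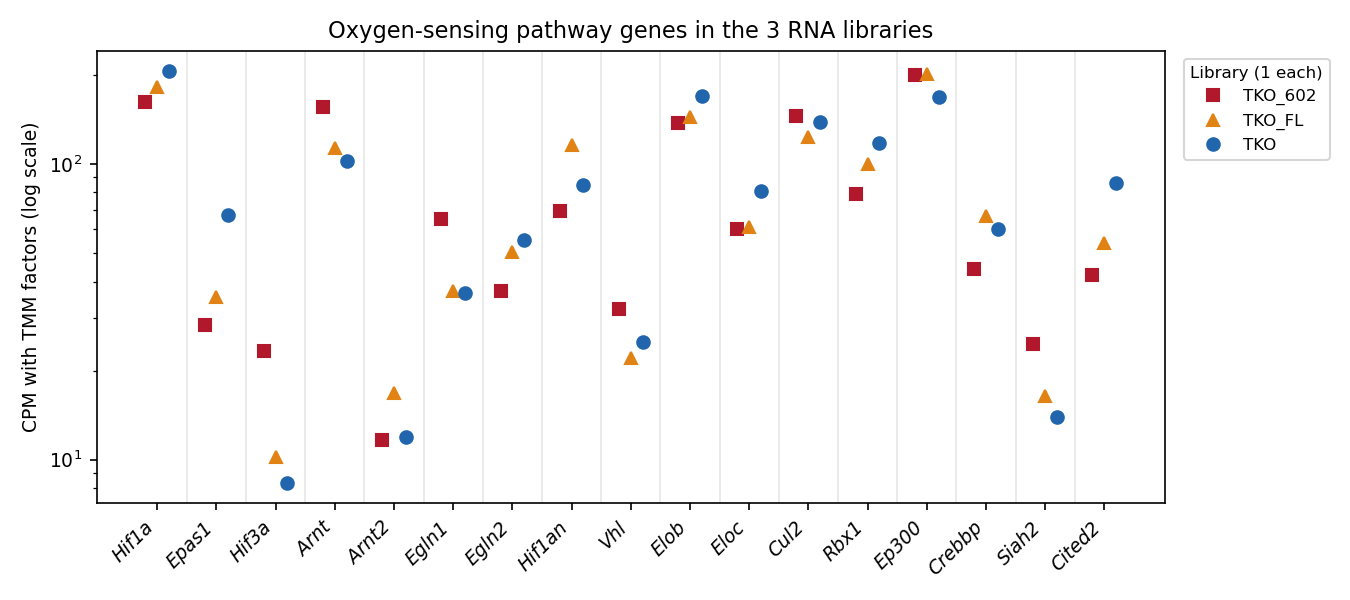
CPM with TMM factors (log scale) of the 17 HIF pathway genes in the TKO_602, TKO_FL and TKO libraries, 1 point per library and no error bars. Hif3a is highest in TKO_602, Epas1 and Cited2 are highest in TKO, and Hif1a spans 162 to 205 CPM.

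A list of 43 other HIF targets, of which 42 were measured, gave these counts. In TKO_FL against TKO 1 was at least 2-fold higher and 2 were lower, where 3.24% of all genes were higher and 2.5% lower, with a median of -0.02. Edn1, the precursor of the vasoconstrictor endothelin, had 3.07 CPM in TKO_FL and 0.579 in TKO, from 59 and 12 reads. Ccng2 (9.62 and 22.8 CPM) and Pfkfb3, which makes an activator of glycolysis (24.6 and 52.4 CPM), were lower in TKO_FL. In TKO_602 against TKO 10 were higher and 4 lower, where 11.0% of all genes were higher and 8.06% lower, with a median of 0.46 and 32 of 42 above 0. The 10 became 12 without TMM factors, 9 with DESeq2 size factors and 11 of 43 measured on TPM, with 4 lower in each. Of all genes, 1745 of 13750, 1467 of 13730 and 1718 of 13868 were higher under these scalings. Cox4i2, a subunit of cytochrome oxidase induced by low oxygen, had 10.6 CPM in TKO_602 and 1.06 in TKO (log2 2.49), and Bhlhe40, a transcriptional repressor, 108 and 35.5 CPM (log2 1.58). Rragd, a GTPase of nutrient signalling, had 14.4 and 64.1 CPM (log2 -2.08), and the haem oxygenase gene Hmox1, which also answers oxidative stress, 68.0 and 208 CPM (log2 -1.60). In TKO_602 against TKO_FL 9 were higher and 3 lower (median 0.41), where 6.75% of all genes were higher and 4.87% lower, led by Ccng2 at 59.3 and 9.62 CPM (log2 2.51). Of 16 glycolytic enzymes, many of them also HIF targets, none was 2-fold apart in TKO_FL against TKO, where 5.74% of all genes were. Their median log2 fold in this comparison was 0.35, with 13 of 16 above 0, beside a median of 0.00 over all genes. In TKO_602 against TKO 4 of the 16 were higher, where 11.0% of all genes were, and in TKO_602 against TKO_FL 5 were higher, where 6.75% were, with none lower in either. The medians were 0.65 for TKO_602 against TKO and 0.30 for TKO_602 against TKO_FL, beside 0.03 over all genes in each. Hk1, which encodes a hexokinase, had 291, 89.0 and 49.6 CPM in TKO_602, TKO_FL and TKO, and the aldolase gene Aldoc 89.0, 41.3 and 20.9 CPM. Gapdh had 170, 15.4 and 11.3 CPM, but the gene has many near-identical copies in the genome and its count is uncertain. It is counted among the 4 and among the 5 enzymes called higher, with the largest fold in each comparison. The 4 became 5 without TMM factors, where 1745 of 13750 genes were higher. On TPM it was also 5, where 1718 of 13868 genes were higher.

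The receptors of VEGF and adrenomedullin did not share the order of Vegfa and Adm over the libraries. Of 13 partner genes, 10 were measured in each comparison with TKO and none was at least 2-fold higher on CPM. At least 2-fold lower were 1 in TKO_FL and 3 in TKO_602, where 2.5% and 8.06% of all genes were. On TPM, 11 were measured in TKO_602 against TKO, of which 1 was higher and 4 were lower. Of 13868 genes, 1718 were higher and 978 lower on TPM. The median log2 fold of the partners in TKO_602 against TKO was -0.68 on CPM and -0.31 on TPM. Kdr, the main VEGF receptor, had 0.982 CPM in TKO_602, 6.03 in TKO_FL and 7.48 in TKO (log2 -2.10 for TKO_602 against TKO). Nrp1, a VEGF co-receptor, had 3.50, 3.80 and 12.5 CPM, and Ramp2, which makes the receptor Calcrl specific for adrenomedullin, had 0.937, 4.63 and 5.21 CPM. Calcrl had 0.268, 1.25 and 0.676 CPM from only 12, 24 and 14 reads. Its difference from TKO was within counting error for TKO_602 (interval -3.18 to 0.46) and for TKO_FL (-0.58 to 2.47). In TKO_602 against TKO_FL, 1 of 11 measured genes was higher, the ligand gene Pgf at 2.01 and 0.364 CPM, from 90 and 7 reads. Kdr and Ramp2, 2 of the 11, were lower, where 6.75% of all genes were higher and 4.87% lower.

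**Figure D5:**
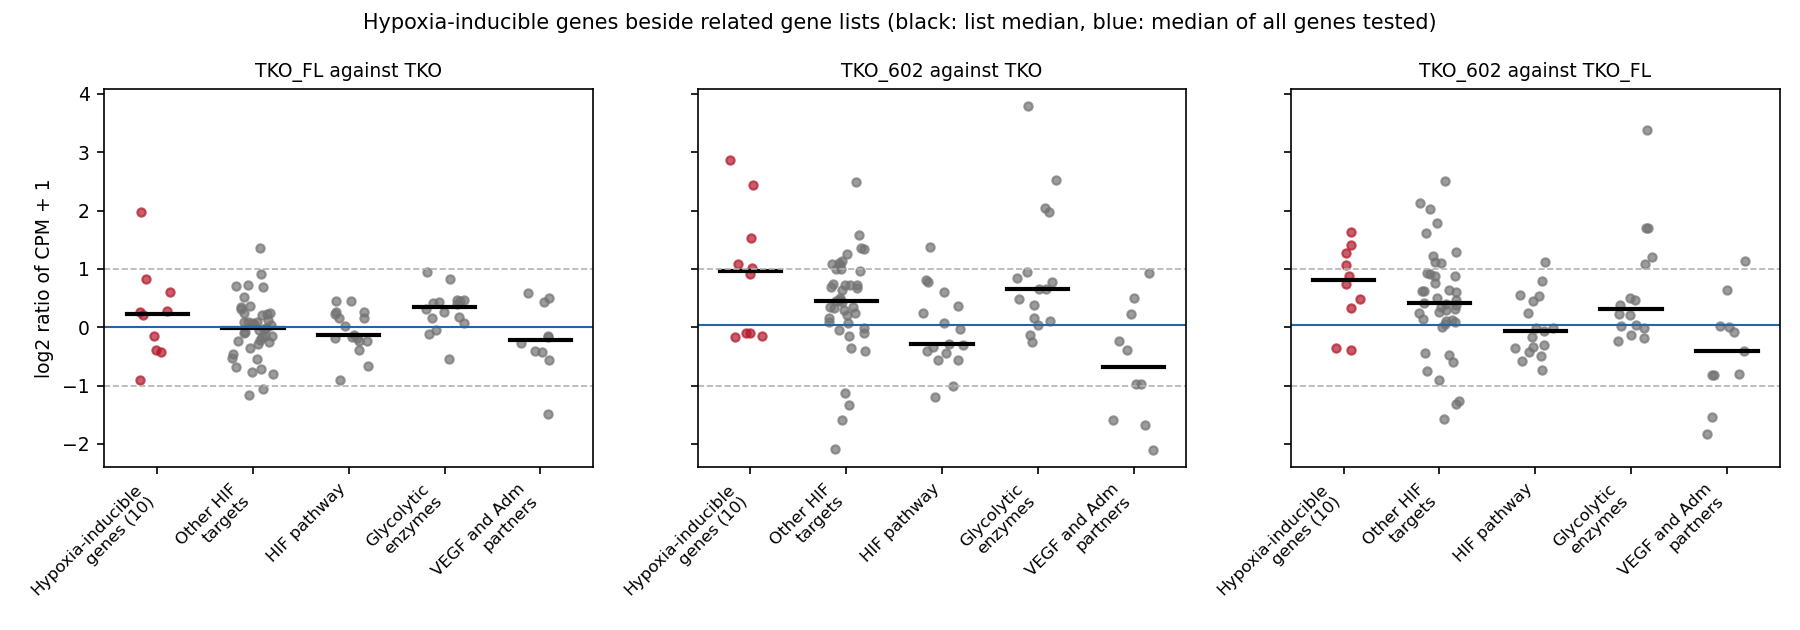
Log2 ratios of CPM plus 1 for the 10 hypoxia-inducible genes (red) and for 4 related lists (grey), 1 point per measured gene, in the 3 comparisons. Black bars are list medians, the blue line is the median of all genes tested and dashed lines mark 2-fold. The medians of the 10 genes are 0.23 for TKO_FL against TKO, 0.96 for TKO_602 against TKO and 0.81 for TKO_602 against TKO_FL.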

How the data were processed

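RNA-seq values of the 3 libraries TKO_602, TKO_FL and TKO were used, grouped by the genotype in their titles. Per the file headers, the authors made the deposited read counts with featureCounts 2.0.6 in paired mode on the RefSeq annotation of mm10, with no strand option and no option to count pairs, so each mate is a count of its own. Per the submitters' processing notes, Trim Galore, HISAT2, SAMtools and Subread were also used. The deposited gene signal table, which holds TKO_FL and TKO, sums to 10000000 a column and was divided by 10 to give TPM, and it served as an alternative. Of each gene table, 11 sample columns have names that match none of these samples and were not used. The repeat table was not used.

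Counts were scaled to CPM with TMM factors from edgeR 4.0.16 in R 4.3.3 (1.04 for TKO_602, 0.983 for TKO_FL and 0.980 for TKO). Log2 folds used a pseudocount of 1 over genes reaching 1 CPM in either library, and 2-fold was the threshold. Intervals were exact 95% binomial intervals of reads divided by 2, without the pseudocount, from scipy 1.17.1 in Python 3.11.15. PCR duplicates are not accounted for. TPM for levels between genes was computed from counts and exonic length. The fold and interval steps were tested on simulated data. With 1 library per genotype no test was run. The genes, the lists and the tests were chosen with earlier results of these data known. From each list up to 4 genes per comparison with the largest folds could be named, and the text gives a selection. Genes named beside these, such as Hif1a, Arnt, Vhl, Calcrl, Pgf and the overlapping neighbours, were named for their role or position, some after their values were seen. Alternatives were other pseudocounts, filters and scalings, among them DESeq2 1.42.0 size factors.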

Additional observations from a re-analysis of the deposited data

How the results depend on the processing

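None of the 30 log2 folds of the 10 genes changed sign under any alternative tried (other pseudocounts, filters and scalings, deposited TPM, and TMM factors from TKO_FL and TKO alone, the last chosen after seeing the data). Calls depended on the pseudocount for low genes. With 0.1, 2 genes were at least 2-fold higher in TKO_FL than in TKO, since Car9 joined at 1.36. With 5, the median of the 10 was 0.70 for TKO_602 against TKO, where Adm fell under 2-fold (0.54), and 0.62 for TKO_602 against TKO_FL, where 2 genes remained at least 2-fold higher and Car9 (0.94) and Adm (0.71) did not. A larger pseudocount shrinks the folds of low genes by construction. Of 228 single-gene values under alternatives, 12 moved by more than the half-width of their counting interval. A minimum of 5 CPM left Car9 and Adm out of TKO_FL against TKO. Over all genes, the number at least 2-fold apart in TKO_FL against TKO was 779, or 1474 with a pseudocount of 0.1 and 175 with 5. With 5 it was 1212 for TKO_602 against TKO, in place of 2614, and 618 for TKO_602 against TKO_FL, in place of 1591. Without TMM factors the median of all genes was 0.12 for TKO_602 against TKO and 0.11 for TKO_602 against TKO_FL, and for TPM it was 0.11 and 0.10, so folds such as the -0.10 of Slc2a1 in TKO_602 against TKO are no larger than the choice of scaling. The median of the HIF pathway list in TKO_602 against TKO_FL was -0.07 and turned to 0.01 without TMM factors. No paired analysis was possible because each genotype has 1 library. Depth limited Adm and Car9, which rest on 28 and 41 reads in TKO_FL and 46 and 16 in TKO.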

Other observations

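Paralogs of the 10 genes were read as well. Ndrg2, a relative of Ndrg1, had 70.8 CPM in TKO_602, 46.0 in TKO_FL and 19.5 in TKO, a log2 fold of 1.81 for TKO_602 and of 1.20 for TKO_FL against TKO, whereas Ndrg1 stayed within 2-fold. Among the other pyruvate dehydrogenase kinases, Pdk4 had 26.5, 8.74 and 7.87 CPM and Pdk2 had 13.8, 5.10 and 4.39 CPM, log2 folds of 1.63 and 1.46 for TKO_602 against TKO, while Pdk1 was lowest in TKO_602. The carbonic anhydrase gene Car2, whose product lies in the cytosol, ran against Car9 with 15.2, 43.1 and 86.0 CPM (log2 -2.43 for TKO_602 against TKO). Car12, which like Car9 encodes an enzyme of the cell surface, had 6.67, 5.20 and 2.85 CPM.

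Per length, Ndufa4l2 reached 32.6% of the level of Ndufa4 in TKO_602, 14.5% in TKO_FL and 2.83% in TKO, and Ndufa4 itself had 467, 536 and 636 TPM. The glucose transporter gene Slc2a3 had 804, 708 and 493 TPM, so Slc2a1 stood at 60.4%, 85.2% and 100.2% of it in TKO_602, TKO_FL and TKO. Egln3 stood at 2.18, 1.81 and 2.04 times the level of Egln1, and at 2.28, 0.797 and 0.808 times that of Egln2, in TKO_602, TKO_FL and TKO. These ratios have no replicate check.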
